A study of Mus musculus with 2 samples.

Results

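A small set of lung capillary endothelial cells, called program cells here, carried RNA of an Inhbb-led group of genes. They were selected on the detection of 7 genes, Inhbb, Tubb6, Mt2, Noct, Myc, Fosl1 and Sele: a capillary-side endothelial cell was a program cell when at least 3 of the 7 had a UMI (a unique molecular identifier, counting 1 captured RNA molecule). Of 13600 cells that passed the gene and mitochondrial filters, 13035 were endothelial and 9884 capillary-side, and 125 of these were program cells, 6 in the control and 119 in the metastatic library. Endothelial cells had at least 2 of Pecam1, Cdh5, Cldn5 and Egfl7 and no UMI of the leukocyte gene Ptprc. Capillary-side cells had at most 1 gene of each of the sets for aerocytes (Ednrb, Fibin, Tbx2), arteries (Gja5, Bmx, Fbln5) and veins (Slc6a2, Car8, Bst1).

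Lungs came from wild-type C57BL/6 mice 6 h after a tail vein injection. The control mice received PBS, and the metastatic mice received 200,000 cells of B16-F10, a mouse melanoma line of the same strain background, labelled with a green CellTracker dye and given in 100 µl of PBS. Each library pooled 2 mice, so the design held 1 control and 1 metastatic library, and no spread between animals could be measured. Lungs of both groups were digested for an hour in collagenase and sorted on PECAM1 before droplet sequencing of RNA 3′ ends. At this early time the tumor cells are arrested in the microvessels, and the model delivers them by injection, with no primary tumor.

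Capillaries of the lung are built mainly from general capillary cells (gCap), which are proliferative and serve as progenitors, and from aerocytes (aCap), which are specialised for gas exchange. Capillary cells that respond to injury or tumor cells are called reactive capillary cells (rCap). Inhbb encodes the βB subunit of activin B and inhibin B, ligands of the TGFβ family that signal through type I and type II activin receptors to SMAD2 and SMAD3. Tubb6 is a β-tubulin, Mt2 a zinc-binding metallothionein, and Noct (nocturnin) an enzyme of nicotinamide adenine dinucleotide phosphate metabolism with rhythmic expression. Myc and Fosl1 (an AP-1 subunit) are growth-associated transcription factors. Sele encodes E-selectin, on which leukocytes roll along inflamed endothelium.

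RefSeq promoter windows of mouse build GRCm38.p6, from 250 bases before to 50 bases after the annotated start, were at hand for 4 of the 7 program genes (Inhbb, Mt2, Noct and Sele). Those of Inhbb, Mt2 and Sele hold a searched motif and are shown with the windows of Srf and Tnip1, members of the actin and the NF-κB lists described later. Each line is read in the direction of its gene, and capitals mark letters that match a searched motif on either strand. The motifs were the metal response element core (TGCACNC or TGCGCNC), AP-1 (TGANTCA), the CArG box that SRF binds (CCWWWWWWGG), κB (GGGRNWYYCC), and the E-box (CACGTG). In these patterns N is any base, R is A or G, Y is C or T, and W is A or T.
Inhbb, chr1:119422199-119422498, minus strand, metal response cores: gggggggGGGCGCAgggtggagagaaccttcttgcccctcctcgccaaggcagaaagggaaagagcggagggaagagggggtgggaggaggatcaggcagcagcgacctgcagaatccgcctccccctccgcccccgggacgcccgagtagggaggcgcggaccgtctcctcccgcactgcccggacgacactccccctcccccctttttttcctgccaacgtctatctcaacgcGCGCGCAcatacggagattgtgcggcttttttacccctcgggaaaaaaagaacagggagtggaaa
Mt2, chr8:94172368-94172667, plus strand, metal response cores and AP-1: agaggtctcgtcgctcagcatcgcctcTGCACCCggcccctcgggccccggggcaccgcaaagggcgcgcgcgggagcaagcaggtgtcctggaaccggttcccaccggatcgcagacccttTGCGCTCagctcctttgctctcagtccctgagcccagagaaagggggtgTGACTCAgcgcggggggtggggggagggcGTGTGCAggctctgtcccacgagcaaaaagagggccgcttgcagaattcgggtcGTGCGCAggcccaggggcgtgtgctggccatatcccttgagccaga
Sele, chr1:164047984-164048283, plus strand, AP-1: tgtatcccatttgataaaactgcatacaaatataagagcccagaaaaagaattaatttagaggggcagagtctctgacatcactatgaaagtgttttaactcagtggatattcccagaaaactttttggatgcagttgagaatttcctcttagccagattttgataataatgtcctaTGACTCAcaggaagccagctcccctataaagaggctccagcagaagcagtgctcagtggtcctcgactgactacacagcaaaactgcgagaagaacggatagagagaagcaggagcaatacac
Srf, chr17:46556113-46556412, minus strand, CArG: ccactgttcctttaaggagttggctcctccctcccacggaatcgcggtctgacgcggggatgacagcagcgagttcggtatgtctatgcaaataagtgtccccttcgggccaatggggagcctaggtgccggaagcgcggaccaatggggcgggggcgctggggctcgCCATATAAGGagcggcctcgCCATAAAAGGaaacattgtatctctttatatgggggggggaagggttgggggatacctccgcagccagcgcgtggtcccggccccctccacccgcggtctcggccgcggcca
Tnip1, chr11:54962891-54963190, minus strand, overlapping κB matches: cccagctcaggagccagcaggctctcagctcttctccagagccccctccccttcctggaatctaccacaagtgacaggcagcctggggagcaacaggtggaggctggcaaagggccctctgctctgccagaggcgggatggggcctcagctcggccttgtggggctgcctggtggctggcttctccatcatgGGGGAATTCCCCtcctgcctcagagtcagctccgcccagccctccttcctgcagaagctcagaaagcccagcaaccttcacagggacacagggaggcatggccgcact
The metal response core stood in the windows of Inhbb and Mt2 and in 25.7% of all 32851 windows of this length, so a match is frequent. The Mt2 window held 4 such cores, at 223, 128 and 50 bases before and 4 bases after the start. The AP-1 letters stood in the Mt2 and Sele windows, 79 and 73 bases before the start, and in 7.81% of all windows. The 4 windows held no full match to the κB, CArG or E-box patterns, which are in 4.51%, 1.63% and 7.15% of all windows. Near matches were not searched, so sites that differ from these patterns are not covered. A match is a description of letters, and no binding was measured. For the gene lists below, a gene was counted when any of its windows matched, while the percentages count single windows.

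Total UMIs were 67929614 in the control and 64733724 in the metastatic library. Of the barcodes that passed the filters 16 were present in both libraries, and no program cell was among them. The median program cell of the metastatic library held 7836 UMIs, against 6096 in the other capillary-side cells, and after thinning every cell to 2000 UMIs it held 1123 genes against 1190. The median share of mitochondrial UMIs was 2.31% against 2.79%. Simulated doublets marked 7 of the 119 program cells (5.88%) and 3.18% of the others.

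The endothelial genes that the rule required are given as a description. Cdh5, encoding VE-cadherin, was at 1819 CPM (the summed UMIs of a group scaled to 1000000) in program cells and 1590.1 CPM in the other capillary-side cells. Cldn5, encoding the tight junction protein claudin-5, was at 3459 and 1965 CPM, while Pecam1 was at 726 and 1069 CPM. The class markers, by which the label gCap can be read, are next. The 8 gCap markers summed to 6367 CPM in program cells, below the 9813 CPM of the other capillary-side cells and above the 3818 CPM of the aerocyte set. The arterial and venous sets were above the program cells on these markers too, at 8197 and 8336 CPM. The 7 aCap markers summed to 99.8 CPM against 1995 CPM in the aerocyte set. The 8 artery markers summed to 356 CPM, above the 149.6 CPM of the other capillary-side cells and below the 2082 CPM of the arterial set. The 10 vein markers were at 281 CPM against 6218 CPM in the venous set.

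Markers of other cell types were low in the metastatic program cells. The 7 lymphoid markers summed to 2.10 CPM (5 of 7 at 0 UMIs) and the 4 neutrophil markers to 2.10 CPM (3 of 4 at 0). The 7 myeloid markers were at 66.2 CPM (4 of 7 at 0) against 276 CPM in the other cells, and the 6 epithelial markers at 107 against 1826 CPM. The 4 erythroid markers were at 248 against 955 CPM, the 6 platelet markers at 341 against 373 CPM, and the 7 melanoma markers at 4.20 CPM (5 of 7 at 0) against 7.46 CPM. The 4 mural markers went the other way, at 52.5 against 15.5 CPM, with the smooth muscle actin gene Acta2 at 16.8 and Pdgfrb at 21.0 CPM. The sums of the other cells include single cells with very high levels. Per cell, the erythroid markers had medians of 231 CPM in program and 230.6 CPM in other cells, with 491292 CPM in the highest other cell. Myeloid medians were 0 in both, with 39138 CPM in the highest other cell. Epithelial medians were 0 and 69.1 CPM, with 262981 CPM in the highest other cell. The part of these markers in the gene results was not tested.

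Program cells were 2.53% of the capillary-side cells in the metastatic library (119 of 4706, exact Clopper-Pearson 95% interval 2.10 to 3.02%) and 0.116% in the control library (6 of 5178, 0.0425 to 0.252%). These intervals, and all that follow, cover counting error only. Because detection of 3 of 7 genes depends on depth, each cell was also thinned to 2000 UMIs, leaving out 93 control and 90 metastatic cells that were shallower. The shares were then 1.41% (65 of 4616, 1.09 to 1.79%) and 0 of 5085, with an interval that reaches 0.0725%. At 4000 UMIs they were 2.07% (80 of 3871) and 0.0466% (2 of 4291). A cell class that should lack the program was read beside them: 0 of 44 control and 0 of 46 metastatic barcodes with lymphoid markers met the rule. Their median depths were 4832.5 and 4722.5 UMIs, and the interval for 0 of 46 reaches 7.71%.

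The number of program genes per cell had a longer tail in the metastatic than in the control library. In the control library 4820 cells had none of the 7 genes, 326 had 1, 26 had 2, 5 had 3, and 1 had 5. In the metastatic library 3966 had none, 512 had 1, 109 had 2, 37 had 3, 34 had 4, 30 had 5, 11 had 6 and 7 had all 7. The cells just inside the threshold (3 genes, 37 cells) and just outside it (2 genes, 109 cells) were at 736 and 158 CPM of Hbegf and at 4569 and 1527 CPM of Akap12.

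**Figure D1:**
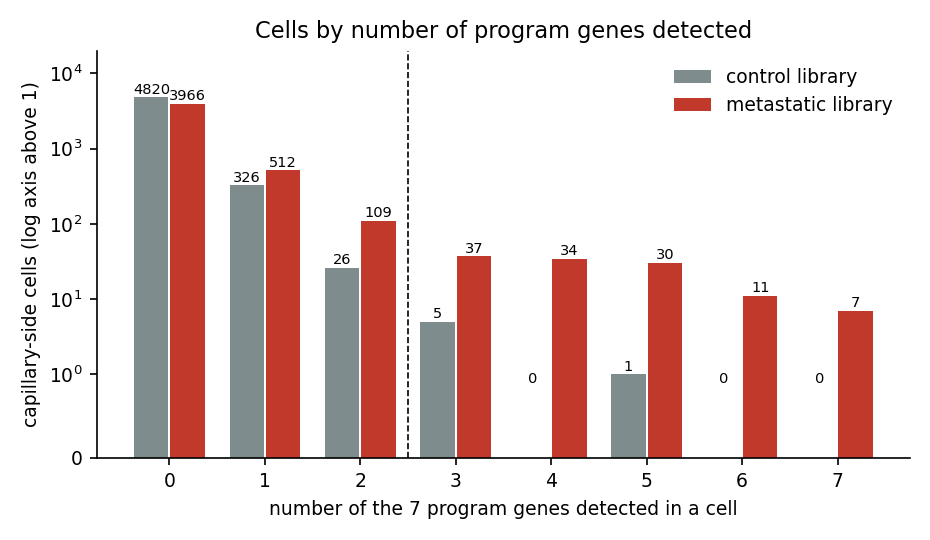
Capillary-side cells of each library by how many of the 7 program genes had a UMI, with the vertical axis logarithmic above 1 and the number of cells printed above each bar. The dashed line marks the rule of at least 3 genes, to the right of which stand 6 control and 119 metastatic cells.

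The 7 genes chose the cells, so their own levels in program cells are given only as a description. Of the 119 metastatic program cells, 96 had a UMI of Tubb6, 93 of Noct, 91 of Inhbb, 76 of Fosl1, 74 of Myc, 55 of Mt2 and 27 of Sele. Inhbb was at 575 CPM in program cells and 20.2 CPM in the other cells, and its level per cell ran from 0 over a median of 3.32 to 33.5 UMIs per 10,000. Fosl1 was at 198 and 0.641 CPM, and Sele at 299 and 2.94 CPM. In the metastatic library each gene was also left out in turn, and cells were selected on 3 of the other 6. The 7 genes were chosen with earlier results of these data known, so how often the omitted gene was found is a description too. Tubb6 was then detected in 76.3% of 97 selected cells and 2.39% of the rest, Noct in 72.3% of 94 and 3.90%, and Inhbb in 70.8% of 96 and 6.44%. Fosl1 was detected in 59.8% and Myc in 57.9% of 107 cells each, against 0.652% and 1.48% of the rest. Mt2 reached 40.2% of 107 cells against 2.74%, and Sele 19.3% of 114 against 0.653%. In the lymphoid-marker barcodes of that library Myc was in 5 of 46, Tubb6 and Mt2 were in 1 each, and the other 4 genes in none. Mt2 and Tubb6 belong to families of similar genes, among which reads can be shared.

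The 6 control program cells were unlike each other. Control cell 1, with 22349 UMIs, carried 5 of the 7 genes and had 33 UMIs of Pdgfa and 369 of Actb. The other 5 each carried 3 of the genes and had at most 4 UMIs of Pdgfa and 92 of Actb. Cell 2 was marked as a doublet, cell 3 held 406 UMIs of lymphatic markers, and cell 4 held 97 UMIs of cell cycle genes. The median depth was 17454.5 UMIs, against 5859 in the other control capillary-side cells, and none of the 6 kept 3 program genes after thinning to 2000 UMIs. Ratios between metastatic and control program cells therefore rest on a handful of deep, dissimilar control cells. The genes with the lowest such ratios, among them Spp1, Maf, Mmrn1, Top2a, Prc1 and Fabp4, include markers of lymphatic and dividing cells. Those with the highest were Cxcl16 (555 CPM in metastatic and 10.8 CPM, 1 UMI, in control program cells) and Csf1 (386 and 10.8 CPM, 1 UMI).

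The comparisons that follow set the 119 program cells against the 4587 other capillary-side cells of the metastatic library. Of 6429 genes with a mean of at least 20 CPM over the 4 groups and a UMI in the program cells, 1042 were at least 1.5-fold higher (16.2%) and 2017 at least 1.5-fold lower (31.4%), and the median log2 ratio was -0.21. With median-of-ratios size factors in place of total UMIs the split was 1502 higher and 1407 lower, around a median of 0.04. At 4-fold, 195 genes were higher and 193 lower. A further 24 genes had no UMI in the program cells. The mean that a gene had to reach includes the program cells themselves, so a gene could pass through the group where it was high. The ranking and the list counts below are read with that limit. With 1 library per group no test was possible, and intervals of ratios are exact conditional binomial ones. Ranked by the smaller ratio of the 2 libraries, the 10 genes that stood highest in program cells besides the 7 included Sphk1, Plek2, Bean1, Tuba1c, Tnfaip2, Col18a1, P2ry2, Pdgfa and Rnd1. The control ratios of this ranking come from the 6 dissimilar control program cells and can rest on few UMIs, so the ranking is a description. Sphk1, which makes the lipid mediator sphingosine 1-phosphate, was at 50.4 against 0.540 CPM in the metastatic library, with 3 UMIs in the control program cells. The lowest were led by Sftpc and Sftpa1, surfactant genes of alveolar epithelium, with Sftpc at 72.5 against 1575 CPM. Both belong to the epithelial markers above, whose sum in the other cells includes single cells with very high levels.

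Genes of plasminogen activation were higher. Plaur, the urokinase receptor, was at 617 CPM in program cells (interval 568 to 669) and 38.5 CPM in the other cells, with an interval of the log2 ratio from 3.85 to 4.15, and 105 of the 119 cells had a UMI. Per cell it ran from 0 over a median of 4.82 to 29.9 UMIs per 10,000. Plat, tissue plasminogen activator, was at 132 against 44.3 CPM. Plau, urokinase itself, had 8 UMIs in program cells (8.41 against 0.540 CPM). The aggrecanase gene Adamts4 was at 81.9 against 0.810 CPM and was found in 28 cells.

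Of the 15 measured genes of matrix and proteolysis, 12 were at least 1.5-fold higher, 2 lower and 1 between, with a median of 1.49. Basement membrane chains were in the higher group, Col4a1 at 1848 against 913 CPM and Lamc1 at 124 against 29.2 CPM. The metalloprotease inhibitor Timp1 was at 22.1 against 2.23 CPM, and Timp2 ran the other way, at 95.6 against 201 CPM. The related inhibitor Timp3, held in the flow-responsive list, was at 1928 against 299 CPM.

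Growth factor genes went both ways. Vegfc and Vegfa, ligands of the VEGF receptors, were at 4.20 against 37.2 and 173 against 280.2 CPM. Pdgfa, a mitogen for mesenchymal cells, was at 1195 against 36.4 CPM (log2 ratio 5.03, 4.91 to 5.16), with a UMI in 77 of 119 cells and the top cell holding 11.1% of its UMIs. Hbegf, a membrane-shed ligand of the EGF receptor, was at 1455 against 59.6 CPM (4.61, 4.51 to 4.71) and was found in 102 cells. Pdgfb was at 395 against 185 CPM. Csf2, encoding GM-CSF, was at 178 CPM in program cells and at 0.472 CPM (14 UMIs) in the other 4587 cells, with 27 program cells positive. The 119 cells, 2.53% of the capillary-side cells, held 92.3% of the library's capillary-side Csf2 UMIs, 51.3% of those of Pdgfa and 43.9% of Hbegf. Csf1, the macrophage growth factor, was at 386 against 112 CPM.

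The genes of the actin cytoskeleton list were higher. All 12 genes of the list of actin and SRF targets were at least 1.5-fold higher (median 2.13), from Tagln2 (0.60, interval 0.50 to 0.70), which lies just past the threshold, to Tpm1 (3.19). SRF is the transcription factor that reads out the pool of unpolymerised actin. Actb was at 15788 CPM in program cells and 2323 CPM in the others, with per-cell levels of 16.2, 148 and 432 UMIs per 10,000 at the lowest, median and highest. Actg1 was at 7084 against 940.2 CPM. Every program cell had UMIs of both. The tropomyosin genes Tpm1 and Tpm4 were at 1428 against 157 and 1341 against 341 CPM, and the focal adhesion genes Vcl and Zyx at 483 against 117 and 264 against 60.8 CPM. Srf itself was at 111 against 23.5 CPM. Its window printed above held a pair of CArG boxes, at 82 and 62 bases before the start. Of the 11 list genes with a window, 4 (Srf, Actg1, Vcl, Cnn2) held a CArG box, against 1.63% of all windows. The genes had been listed as actin genes and SRF targets, so this count is a description. The small GTPase gene Rnd1 was at 183 against 7.12 CPM.

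Akap12, which encodes a scaffold that anchors protein kinase A at the cell cortex, was at 6783 against 375 CPM (4.18, 4.13 to 4.22). It was found in 115 of the 119 program cells and, before thinning, in 67.2% of the others. After thinning to 2000 UMIs it was found in 93.3% and 39.0%.

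**Figure D2:**
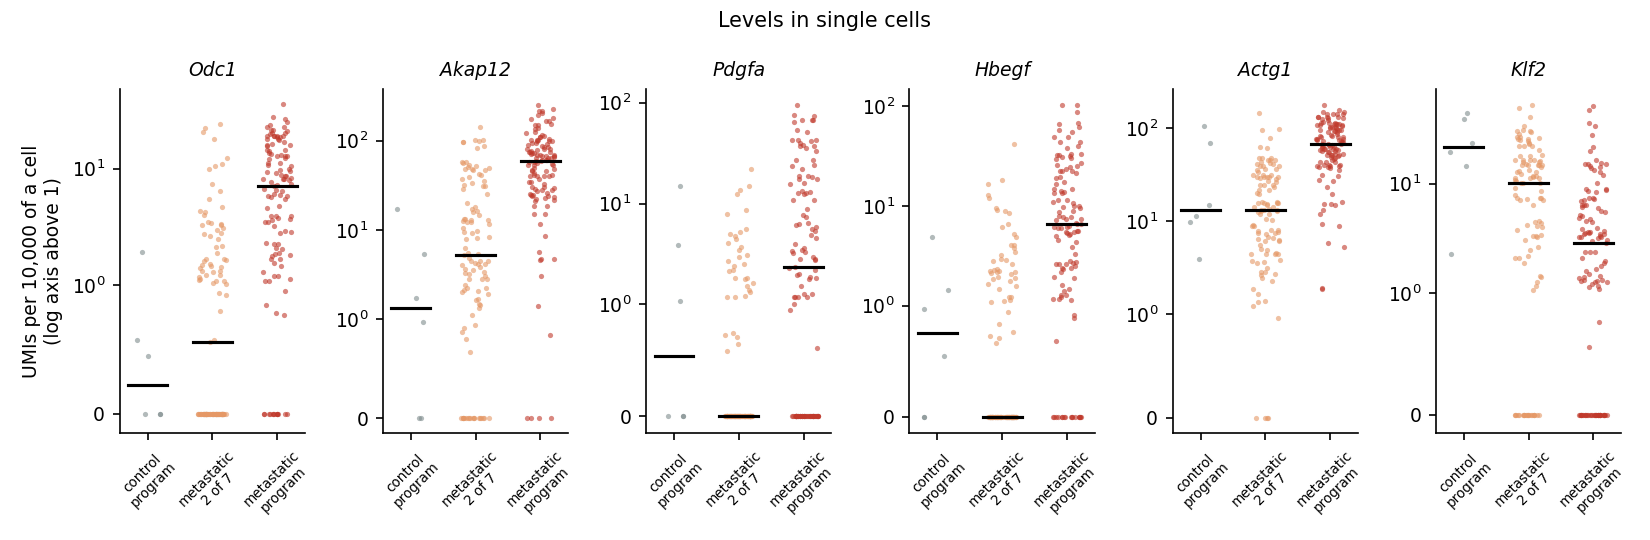
UMIs per 10,000 UMIs of a cell (axis logarithmic above 1) for 6 genes that were not used to choose the cells, in the control program cells, the metastatic cells with 2 of the 7 genes and the metastatic program cells, with a line at each median. For Akap12 the metastatic program cells have a median of 59.2 and for Hbegf of 6.52.

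Genes for making ribosomes and polyamines were higher. Of 16 genes of ribosome biogenesis 13 passed the level filter, and these 13 were at least 1.5-fold higher, with a median of 2.19. The 3 that did not pass, Rrp12, Bop1 and Polr1b, had 24, 36 and 19 UMIs in the program cells. Ncl (nucleolin) was at 1383 against 427 CPM, Nop58, a protein of box C/D small nucleolar particles, at 323 against 65.4 CPM, and Gnl3 (nucleostemin) at 379 against 61.0 CPM. In contrast, the median share of UMIs from ribosomal protein genes was 10.8% in program and 10.4% in other cells. Of the 7 polyamine genes, 5 were higher and 2 between. Odc1, the rate-limiting enzyme, was at 821 against 58.2 CPM and Srm, spermidine synthase, at 105 against 13.7 CPM. The catabolic gene Sat1 was at 248 against 356 CPM and the antizyme gene Oaz1 at 489.6 against 617 CPM. Myc, a known activator of both groups, was a rule gene, and of the 6 measured genes of the MYC network list 1 was higher, 2 were lower and 3 between. The CACGTG letters that MYC can bind stood in the windows of 2 of the 12 ribosome biogenesis genes with a window, against 7.15% of all windows.

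The NF-κB targets were higher as well. Of the 14 genes of that list 10 passed the level filter, and these 10 were at least 1.5-fold higher, with a median of 1.77. The 4 that did not pass, Nfkbie, Traf1, Cxcl1 and Ccl2, had 14, 10, 30 and 3 UMIs in the program cells. They include feedback inhibitors: Tnfaip3 (A20) was at 142 against 13.6 CPM, Tnip1 at 228 against 22.1 CPM and Nfkbia at 2764 against 1208 CPM. Of the 11 genes of that list with a window, 8 held κB letters in any window, against 4.51% of all windows. The genes had been listed as NF-κB targets, so this count is a description. Icam1, an adhesion molecule for leukocyte integrins, was at 1246 against 255 CPM and was found in 107 cells.

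Of the 13 chemokines and cytokines 5 passed the level filter, and of these 4 were higher and 1 between, with a median of 2.71. In the program cells 4 of the 13 had no UMI. The broad ones were Cxcl16, at 555 against 50.0 CPM and found in 96 cells, and Cx3cl1, at 196 against 30.0 CPM. Cxcl12 was at 452 against 456 CPM. Others rested on few cells. Cxcl10, an interferon-inducible attractant of T cells, was at 250.0 against 21.2 CPM, but 1 cell held 196 of the 238 UMIs (82.4%) and only 13 cells had any. In program cells with no Sele UMI its log2 ratio was -0.13. Vcam1 was at 166 against 17.0 CPM, 44.3% of it in 1 cell. Cxcl1 and Cxcl2, attractants of neutrophils, had 30 and 27 UMIs. Of the 6 measured leukocyte adhesion genes 2 were higher, 2 lower and 2 between.

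Metal and tubulin genes were uneven. Mt1, the neighbour of Mt2 on chromosome 8, was at 1779 against 36.2 CPM (5.62, 5.51 to 5.73), found in 74 of the 119 cells and, per cell, between 0 and 196 UMIs per 10,000 around a median of 1.64. In program cells with no UMI of its partner Mt2, a rule gene, the log2 ratio was 3.09. The zinc exporter gene Slc30a1, another classic target of the metal sensor MTF1, was at 88.3 against 66.7 CPM, and none of the 3 measured genes of the metal list other than Mt1 was past 1.5-fold. Of the 7 measured tubulins, Tuba1c was higher (244 against 6.17 CPM), Tubg1 lower (6.30 against 20.8 CPM) and 5 between, with Tubb5 at 332 against 308.5 CPM.

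Genes around activin itself were mixed. Of 7 measured genes of activin signaling, 2 were higher, 3 lower and 2 between (median -0.45). The co-SMAD gene Smad4 was at 485 against 167 CPM. The inhibitory Smad7 was at 229 against 519 CPM, the type II receptor Acvr2b at 4.20 against 26.6 CPM and the co-receptor Tgfbr3 at 14.7 against 71.7 CPM. The activin antagonist follistatin (Fst) had 1 UMI in the program cells. Inha, whose product pairs with the βB subunit to form inhibin B, had none among the 951846 UMIs of these cells, where 3 UMIs would be 3.15 CPM.

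The AP-1 and immediate early list had no common direction. Of 15 measured genes 6 were higher, 2 lower and 7 between (median 0.11). Fosl2, Maff and Egr3 were higher (124 against 24.2, 189 against 42.6 and 119 against 35.3 CPM), whereas Fos was at 1131 against 1681 and Jun at 2335 against 3916 CPM. Of 5 measured genes of ERK feedback 2 were higher (Spry4, 410 against 58.0 CPM, and Dusp5, 74.6 against 13.1 CPM) and 2 lower (Dusp6 and Spry1). Of 10 measured heat shock genes 5 were higher and 5 between, with the small heat shock gene Hspb1 (786 against 168 CPM) and Hsp90aa1 (994 against 325 CPM) in the first group, while Hspa1a was at 91.4 against 82.1 CPM.

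Genes of resting capillary identity were lower. Of the 8 gCap markers 6 were at least 1.5-fold lower and 2 between, with a median of -1.20. The angiopoietin receptor gene Tek was at 106 against 461 CPM, the phosphatase gene Ptprb at 800.5 against 2824 CPM and the receptor gene Kit at 261 against 718 CPM. Cd93 went the other way, at 2856 against 1998 CPM. Of the 6 flow-responsive genes 4 were lower and 2 higher. Klf2, the transcription factor raised by laminar flow, was at 611 against 1951 CPM and ran from 0 over 2.85 to 50.8 UMIs per 10,000. The thrombomodulin gene Thbd was at 207 against 942.5 CPM. Tmem100, a target of BMP9 and ALK1 signaling, was at 203 against 1652 CPM. Hpgd, an enzyme that inactivates prostaglandins, was at 880.4 against 5933 CPM; it was named after its values were seen.

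Lipid uptake, interferon and glucocorticoid genes were lower too. Of 5 measured lipid uptake genes 4 were lower and 1 between, with Cd36 at 612 against 1545 CPM and Gpihbp1 at 820.5 against 1416 CPM. Of 11 measured interferon-stimulated genes 9 were lower and 2 between (median -1.16), with Ifit3 at 23.1 against 73.7 CPM. Of 9 glucocorticoid-responsive genes 5 were lower and 4 between (median -1.10), with Tsc22d3 (GILZ) at 39.9 against 183 CPM. These genes were also lower in the other capillary-side cells of the metastatic library than in those of the control library (7 of 9, median -0.91, where 1.02% of all genes were as much lower). The class I MHC genes were nearer to the background: 1 of 7 was lower and 6 between (median -0.33), and 3 of 4 class II genes were lower.

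Angiogenic and junction genes were divided. Of 17 angiogenic ligands and receptors 5 were higher and 7 lower. Kdr, the main VEGF receptor, was at 245 against 378 CPM, the co-receptor Nrp1 at 176 against 492 CPM and the Notch target Hey1 at 52.5 against 278 CPM, while Nrp2 was at 49.4 against 9.08 CPM. Of 11 junction genes 4 were higher and 5 lower. Gja1 (connexin 43) was at 57.8 against 7.39 CPM and Gja4 (connexin 37) at 74.6 against 212 CPM. The tight junction scaffold gene Tjp1 was at 233 against 655 CPM.

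The remaining lists are read beside the background of all genes, of which 16.2% were higher and 31.4% lower. Glycolysis and hypoxia genes were 5 higher, 3 lower and 5 between of 13, and Nrf2 targets 3 higher and 4 between of 7. The JAK-STAT list was 1 higher, 4 lower and 12 between of 17, survival and death genes 2 higher and 10 between of 12, and mRNA decay genes 1 higher, 5 lower and 7 between of 13. The unfolded protein list was 2 higher, 1 lower and 4 between of 7, the clock 2, 1 and 3 of 6, and coagulation 2 higher and 2 lower of 4. Of 7 measured cell cycle genes 2 were higher, 2 lower and 2 between, and 1 had no UMI in the program cells.

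**Figure D3:**
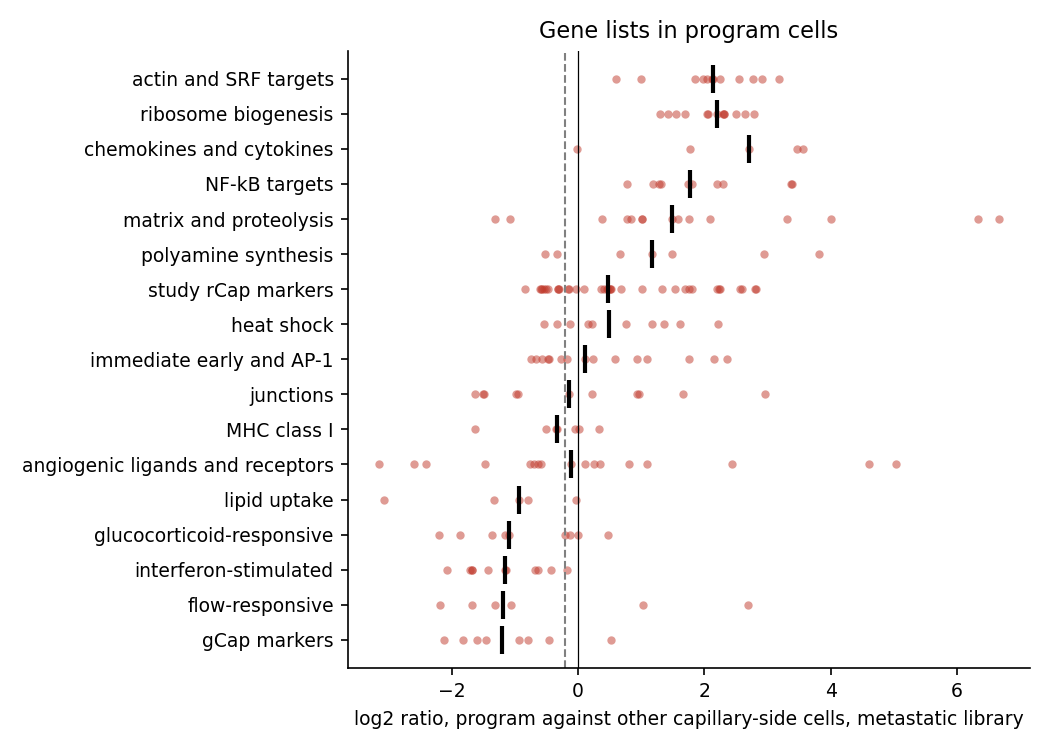
Log2 ratio of summed CPM, program against other capillary-side cells of the metastatic library, for each measured gene (points) of 17 gene lists with the list median (black bars), a dashed line at the median of all genes (-0.21) and a solid line at 0. All points of the actin and SRF, ribosome biogenesis and NF-κB lists lie above 0.5, and the gCap, flow-responsive, interferon and glucocorticoid medians lie below -1.

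The study's own list of rCap markers leaned higher, though many of its genes did not differ by 1.5-fold. That list was chosen on these samples, so its direction is not independent evidence. Of its 35 measured genes 14 were higher in program cells, 3 lower and 18 between (median 0.47). Over all genes 16.2% were higher and 31.4% lower (median -0.21). Inhbb, which the paper also names as an rCap marker, was a rule gene and is not counted in this list. Bcl3, an NF-κB cofactor, was at 142 against 40.8 CPM, and Emp1 at 751 against 158 CPM. The kinase gene Pim3 was at 209 against 258 CPM, Tmem252 at 142 against 197.5 CPM and Grrp1 at 137 against 244 CPM. Scarb1, a lipoprotein receptor gene, was at 147 against 151 CPM. The direction of these 4 genes turned when 2 of the 7 genes sufficed for a program cell, with log2 ratios of 0.26 for Pim3, 0.66 for Tmem252, 0.17 for Grrp1 and 0.69 for Scarb1.

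Levels were also read along the number of program genes. In metastatic cells with 0, 1, 2, 3, 4 and 5 to 7 of the genes, Hbegf was at 55.6, 65.0, 158, 736, 753 and 2402 CPM. Akap12 went from 305 over 1527 (2 genes) to 9267 CPM (5 to 7 genes). Klf2 went down over the same cells from 2028 to 319 CPM and Tmem100 from 1724 to 103 CPM. Pim3, Tmem252 and Scarb1 peaked in the cells with 2 genes, outside the program, and did so in the control library too. Tmem252 was at 168, 326, 482, 300.3, 90.9 and 66.2 CPM, with an interval of 435 to 532 at 2 genes and 43.6 to 96.3 at 5 to 7. Pim3 was at 240.4, 336, 412, 350.3, 163 and 142 CPM. Cdh5 moved little, from 1604 to 1968 CPM. Detection of the 7 genes also depends on a cell's depth. In the control library the 26 cells with 2 genes held 532 CPM of Pim3, against 232 CPM in cells with none. Tmem252 was at 457 against 148 CPM and Scarb1 at 284 against 133 CPM in the same control cells.

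**Figure D4:**
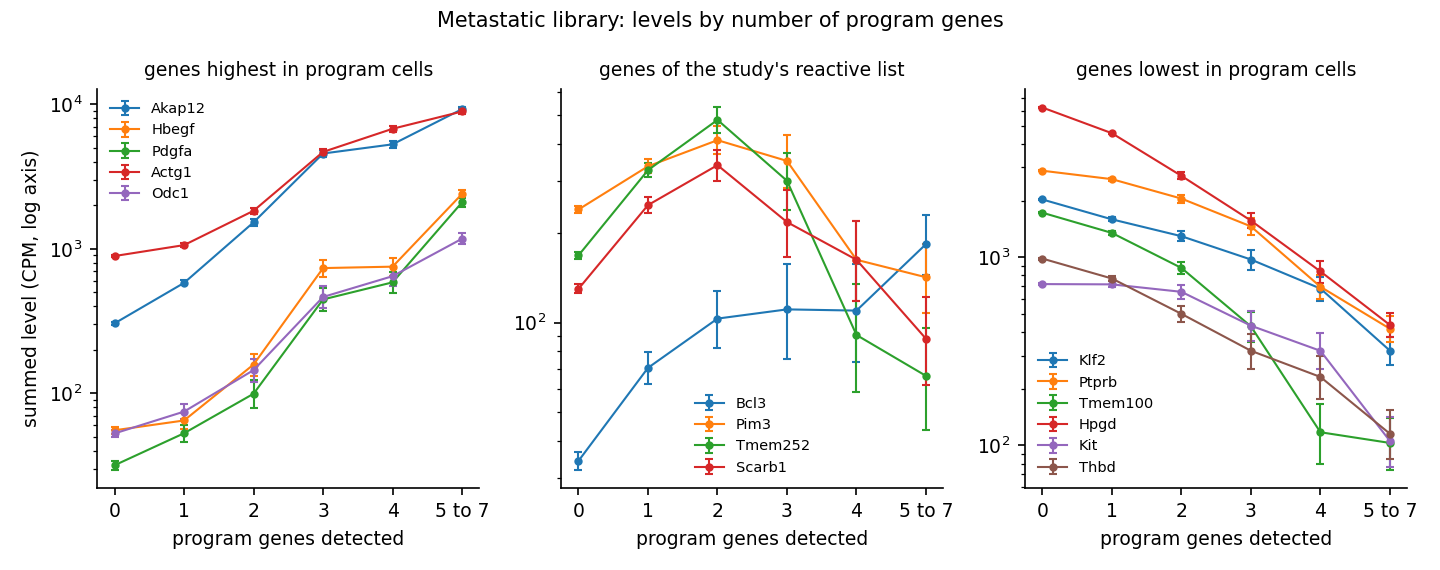
Summed CPM (log axis) of metastatic capillary-side cells by the number of program genes detected, in 3 panels for genes highest in program cells, genes of the study's reactive list and genes lowest in program cells. Bars are 95% exact Poisson intervals. Tmem252 is at 168 CPM with no program gene, 482 CPM with 2 and 66.2 CPM with 5 to 7.

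Program cells differed among themselves. The 55 cells with Mt2 held 3393 CPM of Mt1 against 307 CPM in the 64 without, and 1423 against 986 CPM of Pdgfa, while Actg1 was at 7038 and 7126 CPM. The 76 cells with Fosl1 held 1973 CPM of Hbegf against 579.5 CPM in those without, 1598 against 512 CPM of Pdgfa and 1844 against 724 CPM of Tpm1. The 91 cells with Inhbb held 1399.9 CPM of Pdgfa against 509.9 CPM. The 27 cells with Sele held 84.0 against 207 CPM of Csf2, 1675 against 1045 CPM of Pdgfa and 1503 against 1440.1 CPM of Hbegf. Few cells carried most of some genes. The smallest number of cells that together held the larger part of a gene's UMIs was 4 for Sele, 5 for Csf2, 7 for Mt2, 8 for Mt1, 11 for Pdgfa, 18 for Inhbb, 24 for Akap12 and 31 for Actb.

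Cells of the aerocyte set met the same detection rule in 11 of 1070 metastatic (1.03%, 0.514 to 1.83%) and 0 of 1348 control barcodes, where the interval reaches 0.273%. The arterial set held 1 of 62 control and 0 of 58 metastatic such cells, and the venous set 1 of 244 and 1 of 292. The 11 aerocyte-set cells held a median of 11614 UMIs, against 8097 in the other 1059. Akap12 was at 3640.1 against 355 CPM in them and Actb at 7287 against 2344 CPM. Hbegf was at 36.4 against 22.7 CPM, with an interval of the log2 ratio from -0.96 to 1.93 that includes 0. Kit, at 466 against 259 CPM, was higher in these 11 cells and lower in the capillary-side program cells, and Ptprb was at 1158 against 1124 CPM. The difference between the 2 cell classes was not tested.

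The program cells carried part of the difference between the libraries. Without them, 136 of 6452 genes (2.11%) were at least 1.5-fold higher in the metastatic than in the control capillary-side cells and 66 (1.02%) at least 1.5-fold lower, around a median log2 ratio of 0.02. Over all capillary-side cells the log2 ratio was 1.85 for Mt1, 1.64 for Pdgfa, 1.38 for Hbegf and 1.30 for Akap12. Without the program cells of both libraries it was 0.57, 0.72, 0.61 and 0.69. Plaur turned from 0.35 to -0.19 (interval -0.30 to -0.07). For Inhbb, a rule gene, the ratio was 2.78 with and 1.98 without the program cells, at 20.2 CPM in the other metastatic and 5.14 CPM in the other control cells. The 7 rule genes were chosen with earlier results of these data known, so their direction is a description. All 7 were at least 1.5-fold higher in the other metastatic cells, where cells with 1 or 2 of them remained. The levels of the actin list were closer between libraries there, with none of 12 past 1.5-fold and a median of 0.28. Among program cells, the actin list had a median log2 ratio of 1.20 between the metastatic and the 6 control cells. This ratio mixes unlike control cells: Actb was at 16511 CPM in the 1 cell with 5 genes and at 3524 CPM in the 5 cells with 3.

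**Figure D5:**
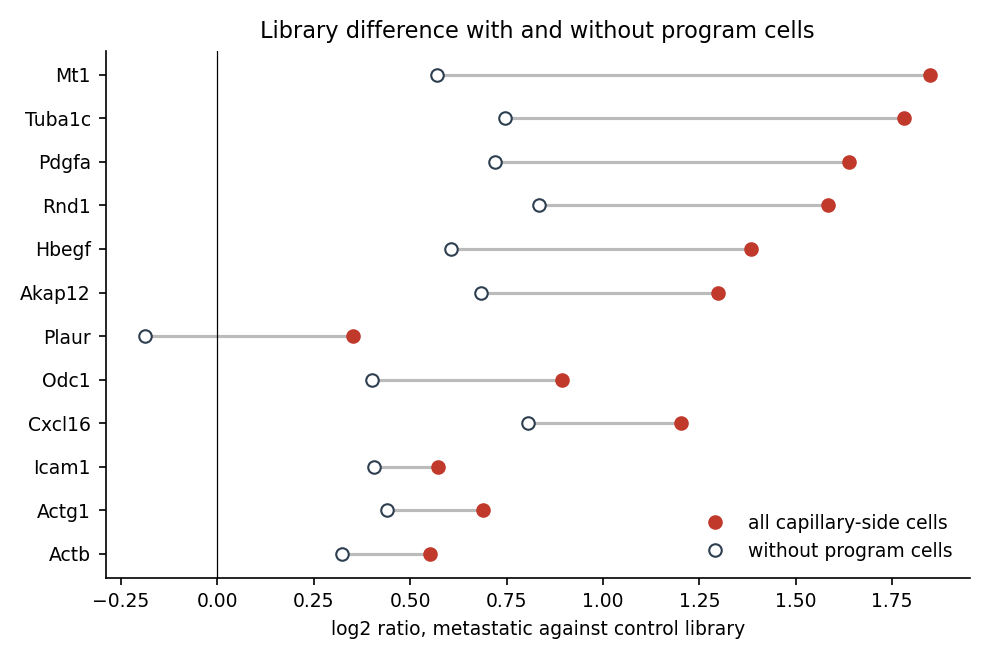
Log2 ratio of summed CPM, metastatic against control library, over all capillary-side cells (filled) and without the program cells (open), for 12 genes. Mt1 moves from 1.85 to 0.57 and Plaur from 0.35 to -0.19, while Actb moves from 0.55 to 0.32.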

How the data were processed

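Single-cell RNA was measured in 1 control and 1 metastatic lung library, each of 2 pooled mice. The deposited matrices hold UMI counts per gene and barcode, made by the authors with Cell Ranger against mouse mm10 and not normalized. The matrix header names software version 3.1.0. Barcodes with 1000 to 5000 genes and under 20% mitochondrial UMIs were kept, doublets included. Counts were summed over cells of a group and library, scaled to CPM by total UMIs, and compared as log2 ratios with exact Poisson or conditional binomial 95% intervals. Groups rest on 1 library each, so no test was run. Cells were thinned with a fixed seed. A gene was called past 1.5-fold, among genes with a mean of at least 20 CPM over the 4 groups. Genes were named as rule genes, as members of the lists, as the 10 most extreme ratios in both libraries or between program cells, or as the 5 most extreme differences between those ratios. Other genes, among them the most extreme of the metastatic library alone, were added after their values were seen. Some named genes are not reported here. The program genes and all lists were chosen with earlier results of these data known. Alternatives changed the rule, thinning, filters, doublets, depth weighting and scaling. Calculations used Python 3.11.15, numpy 2.4.6, scipy 1.17.1, pandas 2.3.3 and scikit-learn 1.9.0, and scripts were tested on simulated data.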

Additional observations from a re-analysis of the deposited data

How the results depend on the processing

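Each library was a single pool of mice, so animal variation was not measured and intervals cover counting error only. Of 23 alternatives, 16 were run for genes and lists and the rest, which leave out a rule gene, for shares. The 12 list medians gave 192 values, of which 5 moved by over 1.5-fold and none changed sign. The 48 genes gave 768 values, of which 56 moved by over 1.5-fold and 9, in 5 genes, had the opposite sign. With 2 of 7 genes sufficing, Grrp1 was at 0.17, Pim3 at 0.26, Tmem252 at 0.66 and Scarb1 at 0.69, and Scarb1 was also above 0 in 3 further alternatives. Cxcl10 was at -0.90 when no gene of any class set was allowed and at -0.13 in program cells with no Sele UMI, a choice made after seeing the data. The log2 ratio of Mt1 was 3.09 in program cells with no Mt2 UMI, likewise chosen after seeing the data. The shares of program cells moved with the rule. With at least 2 of 7 genes they were 0.618% (control) and 4.84% (metastatic), a difference of 4.23 percentage points, and with at least 4 they were 0.0193% and 1.74%, a difference of 1.72. After thinning to 2000 UMIs they were 0 and 1.41%, a difference of 1.41, and the metastatic share was 2.07% at 4000 UMIs. The metastatic share was 2.04% without Inhbb as a rule gene, 2.06% without Tubb6 (control 0.0193%) and 2.00% without Noct. Against 1042 higher and 2017 lower genes, 1187 were lower with at least 2 of 7 genes and 3452 lower with a mean of at least 5 CPM, while 2655 were higher and 4162 lower with no level filter, where more genes were counted. The ratio between program cells of the 2 libraries could not be computed after thinning to 2000 UMIs, which left no control program cell, and depth weighting of the control program cells was not run because they filled 2 of 10 depth bins. No paired analysis was possible because each group had 1 library.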
